A study of Mus musculus with 21 samples.

Results

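The Leca2 allele of Pax6 was examined in the rostral cortex of mouse embryos on embryonic day 14 by comparing 4 mutant arrays with 3 arrays of littermate controls. These 7 arrays, chosen by their genotype labels, were part of 21 in all. The others held the Leca4 allele (3 mutants and 4 littermate controls) and the Small-eye (Sey) allele (4 mutants and 3 littermate controls). Both Leca lines were on the strain 129 S6 and the Sey line on C57BL/6J x DBA/2J (B6D2F1). All groups were taken at the same stage and received no treatment, and each array was labelled a biological replicate. The control littermates were labelled wild type, and the labels do not say whether the mutants carried the allele on both copies. The p-values of the main test measure the spread between samples within the 6 groups, taken over all 21 arrays and not over the 7 alone.

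Pax6 is a transcription factor that radial glia, the neural stem cells of the dorsal telencephalon, make throughout cortical neurogenesis. It binds DNA through a paired domain, which consists of the PAI and RED subdomains, and through a homeodomain, and it is known for driving neurogenesis, for restraining progenitor division and for keeping ventral fates out of the cortex. From general knowledge of these alleles, not checked here, the Leca2 mutation lies in the RED subdomain, the Leca4 mutation in the PAI subdomain, and Sey truncates the protein. The comparison asks which transcripts of the developing cortex depend on what the Leca2 mutation disturbs, and how this set stands beside those of the other alleles.

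The Leca2 set was small. Of 13850 genes tested, 66 differed between mutants and littermates (0.477%, adjusted p under 0.05 in limma), 24 of them higher (0.173%) and 42 lower (0.303%) in the mutants. The strongest falls were those of Rlbp1, a retinoid-binding protein, of the urea transporter gene Slc14a1, with mutants below the detection level (the 40th percentile of an array), of the signalling gene Gna14, of the neurogenic genes Neurod4 and Neurog1 and of the chemokine gene Cxcl12. The strongest rises were those of Asb4, a component of ubiquitin ligases, of Paupar, a noncoding RNA made beside Pax6, with controls below that level, and of the glutamate transporter gene Slc1a2. By the measured values only 15 of the 66 genes changed by more than 2-fold, 10 of them downward, and 28 changed by less than 1.5-fold. Slc14a1, Paupar and Gna14 are among the 15, and their sizes are not exact because of the detection level. By the same test 779 genes (5.62%) changed in Leca4 mutants, 469 upward (3.39%) and 310 downward (2.24%), and 2791 (20.2%) changed in Sey mutants, 1488 upward (10.7%) and 1303 downward (9.41%).

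**Figure D1:**
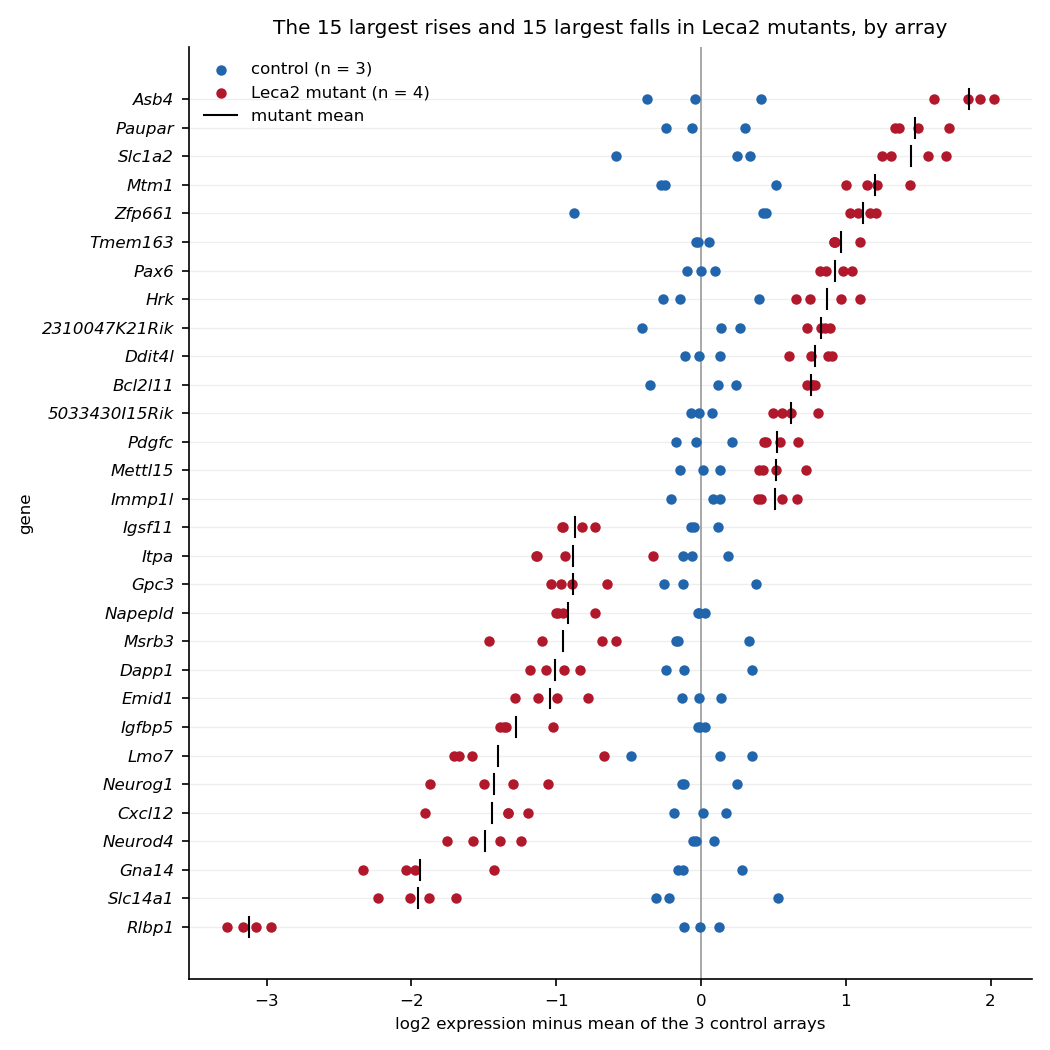
Each row is a gene, and the horizontal axis gives the log2 expression of each array minus the mean of the 3 control arrays. Blue points are controls, red points Leca2 mutants and the black bar is the mutant mean. In all 30 genes the mutant points lie beyond the control points, by the rule that chose them. Rlbp1 stands apart at -3.12, and Lmo7 and Itpa each have 1 mutant array close to the controls.

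The values are log2 expression levels, so that a difference of 1 is a 2-fold change. The mutant and control arrays of the line resembled each other closely. The correlation across probe sets was 0.9944 to 0.9968 among mutants, 0.9945 to 0.9966 among controls and 0.9936 to 0.997 between them. The cortical markers Emx1, Lhx2, Tbr1 and Neurod6 were above the detection level (the 40th percentile of each array, 5.37 to 5.60) on all 7 arrays and overlapped between the groups. Markers of neighbouring tissue were mixed. Gbx2 (diencephalon) and Col1a1 and Lum (meninges) were below that level on all 7, while Lhx9 (diencephalon), Foxc1 (meninges), Lhx6 and Nkx2-1 (ventral telencephalon) and Ttr and Folr1 (choroid plexus) were above it on all 7, with overlapping ranges in mutants and controls. The ventral marker Dlx2 was above it on all 7 as well, at 7.61 to 9.54 in mutants and 7.70 to 8.27 in controls. The ventral marker Gsx2 was above it on 3 arrays, at 5.36 to 6.68 in mutants and 5.23 to 5.37 in controls. Judged by Xist and the Y-linked genes Eif2s3y and Kdm5d, mutants 1 and 2 were male, mutants 3 and 4 female and all 3 controls female. With a term for sex 53 genes were called, 49 of them among the 66. With females alone (2 mutants and 3 controls), 43 were called, 37 of them among the 66. The 3' to 5' difference of the Gapdh control probe sets, a sign of RNA quality, was 0.06 larger in mutants (exact permutation p = 0.0571, two-sided) and that of Actb 0.03 larger (exact permutation p = 0.343), where the smallest p that 4 against 3 allows is 0.0286. The part of RNA quality in the results was not tested.

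Pax6 transcript rose in the mutants. Its levels were 12.20, 12.08, 12.04 and 12.26 in mutants 1 to 4 and 11.31, 11.12 and 11.22 in controls 1 to 3. All 4 mutant arrays lay above all 3 controls, and the level rose 1.9-fold (difference 0.93, SE 0.09, adjusted p = 1.1e-05 in limma). Among the 3 other probe sets of the gene the differences were 0.42, 0.86 and 0.34, with adjusted p of 0.00703, 0.00943 and 0.12. Pax6 changed by 0.49 in Leca4 and by 0.56 in Sey mutants, and neither difference from Leca2 was called (adjusted p = 0.0823 and 0.101 in limma). These probe sets report the amount of transcript and do not check the genotype.

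Paupar, transcribed from a start upstream of Pax6, rose with it. Its levels were 6.01, 5.64, 5.67 and 5.80 in mutants 1 to 4 and 4.24, 4.06 and 4.61 in controls 1 to 3. Every control array was below the detection level, so the rise was at least 1.23-fold, with a measured difference of 1.48 (adjusted p = 0.00021 in limma). In Sey mutants the gene rose by 1.90, a difference from Leca2 that was not called, and in Leca4 mutants it changed by 0.22, which differed from the Leca2 rise (adjusted p of the difference 0.0113).

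Transcription factors that fell included members of the helix-loop-helix family, many of which commit progenitors to a neuronal fate. Neurog1, a proneural factor of dorsal progenitors, measured 8.0, 7.56, 7.19 and 7.76 in mutants 1 to 4 and 9.31, 8.95 and 8.93 in controls 1 to 3. It fell by 1.43, or 2.7-fold (SE 0.15, adjusted p = 3.55e-05 in limma), with a clear gap between the groups. A second, dim probe set of Neurog1 changed by -0.14 (adjusted p = 0.911). Neurod4, a related factor that acts after the proneural genes, measured 6.87, 6.54, 6.36 and 6.72 in the mutants against 8.20, 8.06 and 8.08 in the controls. It fell by 1.49 (adjusted p = 3.11e-06 in limma), and its other probe set fell by 1.83 (adjusted p = 1.1e-06). Neurog2, the main proneural gene of the cortex, measured 12.01, 11.91, 11.74 and 12.12 in the mutants against 12.50, 12.39 and 12.40 in the controls. Its groups did not overlap, yet the difference of -0.48 (95% interval -0.73 to -0.23) was not called (adjusted p = 0.102 in limma), except when arrays were weighted (adjusted p = 0.0495). In Sey mutants Neurog2 fell by 1.61, and the difference between the lines was called (adjusted p = 0.000306).

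The inhibitory helix-loop-helix gene Id4 fell as well. Id4 measured 12.86, 12.57, 12.46 and 12.82 in the mutants against 13.31, 13.23 and 13.20 in the controls and fell by 0.57 (adjusted p = 0.00377 in limma), and both of its other probe sets fell too (-0.79 and -0.60). Ripply3, a transcriptional corepressor, measured 6.27, 5.97, 5.88 and 5.95 in the mutants against 6.96, 6.59 and 6.75 in the controls and fell by 0.75 (adjusted p = 0.00285). Nrarp, a target of Notch that dampens its signal, fell by 0.48 (adjusted p = 0.0139), and its other probe set fell by 0.55. The call of Nrarp was lost without control 1, control 3 or mutant 3 (adjusted p up to 0.0955). Prdm16os, a noncoding transcript named for its neighbour Prdm16, measured 5.51, 5.61, 5.0 and 4.99 in the mutants against 6.00, 5.99 and 6.18 in the controls and fell by 0.78 (adjusted p = 0.00888), a call lost without control 3 (adjusted p = 0.07). Zfp661, a zinc finger gene, measured 7.19, 7.15, 7.06 and 7.01 in the mutants against 5.10, 6.41 and 6.43 in the controls and rose by 1.12 (adjusted p = 0.0154), where control 1 lay far below the others. With all 129 S6 controls Zfp661 differed by 0.31 and was not called (adjusted p = 0.491 in limma). Its call was also lost with females alone (adjusted p = 0.188), with the Leca2 arrays alone (0.307) and without mutant 2 (0.0576).

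Eomes and Tbr1, made later in the neuronal lineage, were not called. Eomes, the marker of intermediate progenitors, measured 12.64, 12.56, 12.45 and 12.67 in the mutants against 12.56, 12.53 and 12.52 in the controls, a difference of 0.04 (95% interval -0.16 to 0.25). Tbr1, a factor of early-born projection neurons, measured 11.72, 11.50, 11.79 and 11.64 in the mutants against 11.66, 11.74 and 11.62 in the controls, a difference of -0.01 (95% interval -0.35 to 0.33). The groups overlapped in both genes. Both fell in Sey mutants (-1.64 and -0.86), and both differences between Sey and Leca2 were called (adjusted p = 2.49e-07 and 0.0311 in limma). Of the list of proneural and intermediate progenitor genes, 2 of 21 measured members fell in Leca2 and none rose, with a median difference of 0.02 beside 0.01 over all genes tested.

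**Figure D2:**
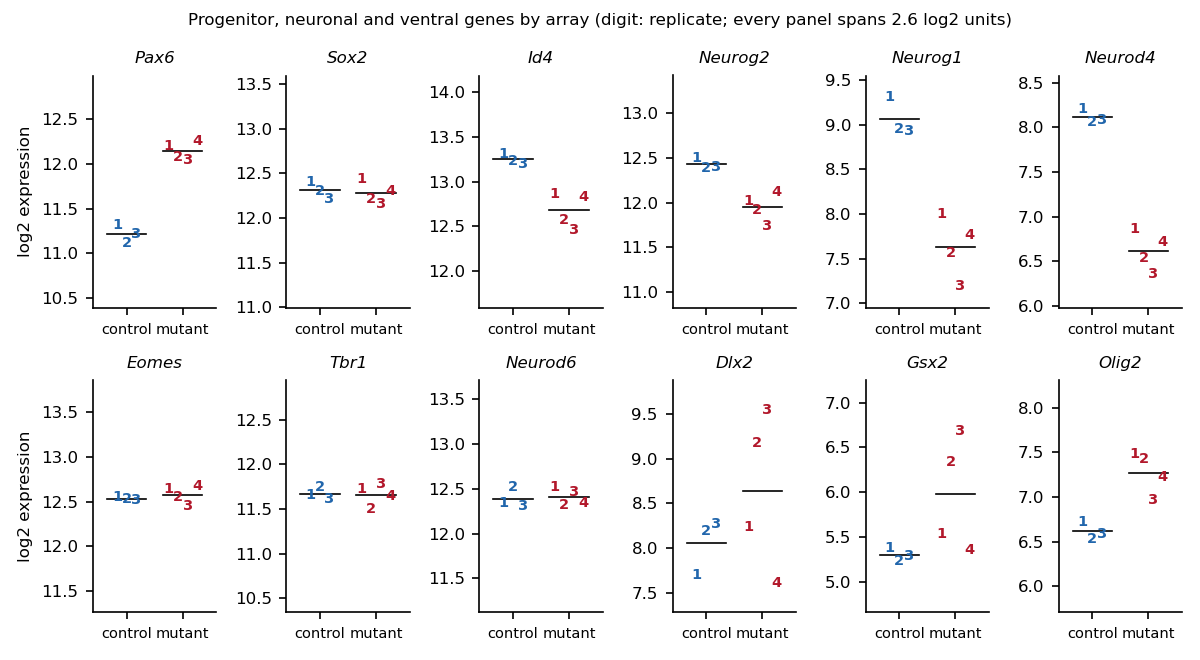
Each panel is a gene, its vertical axis gives log2 expression over a span of the same size, and each digit is the replicate number of 1 array, blue for controls and red for Leca2 mutants, with a bar at the group mean. Neurog1 and Neurod4 fall clear of the controls, Eomes, Tbr1 and Neurod6 overlap them, and in Dlx2 and Gsx2 only mutants 2 and 3 are high.

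Rlbp1 showed the largest change among the 66 called genes. It encodes the cellular retinaldehyde-binding protein of the visual cycle. Its levels were 7.08, 6.77, 6.88 and 6.97 in mutants 1 to 4 and 10.04, 10.17 and 9.93 in controls 1 to 3. It fell by 3.12, or 8.7-fold (SE 0.09, adjusted p = 1.9e-14 in limma). The spread within each group was small beside the gap between them. The gene also fell in Leca4 (-1.12) and in Sey (-6.05), so that the Leca2 fall stood between the others and differed from both (adjusted p = 1.35e-08 and 3.15e-11). Mfge8, its close neighbour on chromosome 7 and a secreted glycoprotein that marks radial glia, rose by 0.30 (adjusted p = 0.022), a call lost without control 1, control 3, mutant 2 or mutant 4 (adjusted p up to 0.166).

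Upstream DNA of some of these genes holds core motifs of the Pax6 domains. The 250 bases before the start of Rlbp1, Neurog1, Tmem163, Asb4 and Fgf7 are shown because they are among the strongest falls and rises, or hold a core motif. They come from RefSeq promoters of build GRCm38.p6, read 5′ to 3′ along the strand of the gene. Capitals mark matches, on either strand, to TTCACGC, a core of paired-domain sites (GCGTGAA on the other strand), or to TAATTA, a core of homeodomain sites, and no match overlaps another.
Rlbp1, chr7:79387028-79387277, minus strand: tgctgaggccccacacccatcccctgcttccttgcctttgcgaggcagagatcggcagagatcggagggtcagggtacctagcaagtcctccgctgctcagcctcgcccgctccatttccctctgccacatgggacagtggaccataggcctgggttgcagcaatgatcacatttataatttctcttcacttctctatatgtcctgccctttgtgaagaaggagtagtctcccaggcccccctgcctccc
Neurog1, chr13:56252181-56252430, minus strand: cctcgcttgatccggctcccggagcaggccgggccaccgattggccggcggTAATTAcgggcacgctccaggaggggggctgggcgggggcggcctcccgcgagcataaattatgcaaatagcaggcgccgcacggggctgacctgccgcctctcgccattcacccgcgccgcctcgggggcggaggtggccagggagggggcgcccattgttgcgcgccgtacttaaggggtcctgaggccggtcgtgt
Tmem163, chr1:127678022-127678271, minus strand: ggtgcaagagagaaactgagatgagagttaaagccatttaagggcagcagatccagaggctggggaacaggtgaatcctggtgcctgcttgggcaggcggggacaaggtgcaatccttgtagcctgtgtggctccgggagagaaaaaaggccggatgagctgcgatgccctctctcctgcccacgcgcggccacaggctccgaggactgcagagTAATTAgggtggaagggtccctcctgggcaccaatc
Asb4, chr6:5383136-5383385, plus strand: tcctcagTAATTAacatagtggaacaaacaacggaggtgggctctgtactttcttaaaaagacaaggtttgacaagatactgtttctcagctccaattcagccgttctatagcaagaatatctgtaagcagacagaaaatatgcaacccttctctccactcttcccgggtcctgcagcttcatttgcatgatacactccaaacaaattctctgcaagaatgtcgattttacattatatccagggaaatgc
Fgf7, chr2:126034408-126034657, plus strand: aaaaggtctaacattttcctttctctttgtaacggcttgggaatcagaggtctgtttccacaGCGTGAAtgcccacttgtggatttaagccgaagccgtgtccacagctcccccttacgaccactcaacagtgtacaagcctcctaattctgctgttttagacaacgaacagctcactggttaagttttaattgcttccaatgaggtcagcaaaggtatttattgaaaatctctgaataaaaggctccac
Neurog1, Tmem163 and Asb4 each hold TAATTA, Fgf7 holds GCGTGAA, and Rlbp1 holds neither in this window. Asb4 has another RefSeq promoter, which holds neither.

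The share of promoters with each motif was counted in the Leca2 set and over the whole table. Of the 66 genes 58 had a promoter in the table, searched from 250 bases before to 50 after the start. TTCACGC stood in 1 of them (1.72%, Fgf7) and in 399 of all 27025 genes with a promoter (1.48%). TAATTA stood in 4 (6.9%, Asb4, Hrk, Neurog1 and Tmem163) and in 1655 of all (6.12%). A match is a string of letters and not a measured binding site.

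Several genes of secreted and growth factor proteins were called. Cxcl12, a chemokine that guides migrating neurons and Cajal-Retzius cells through the receptor Cxcr4, measured 7.91, 8.05, 7.91 and 7.34 in mutants 1 to 4 and 9.06, 9.42 and 9.26 in controls 1 to 3. It fell by 1.44 or 2.72-fold (SE 0.18, adjusted p = 0.000174 in limma), with mutant 4 lowest, and its other probe set fell by 0.58. Igfbp5, which binds insulin-like growth factors, measured 8.03, 8.0, 8.04 and 8.37 in the mutants against 9.39, 9.42 and 9.37 in the controls and fell by 1.28 (adjusted p = 0.000289). Mutant 4 lay above the other mutants and still well below the controls, and a second probe set of Igfbp5 changed by -0.27 (adjusted p = 0.816).

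Emid1, a secreted protein with an EMI domain, measured 7.5, 7.66, 7.79 and 8.0 in the mutants against 8.93, 8.66 and 8.77 in the controls and fell by 1.05 (adjusted p = 0.000536 in limma). Gpc3, a glypican of the cell surface that binds growth factors, measured 6.34, 5.96, 6.10 and 6.02 in the mutants against 7.37, 6.74 and 6.87 in the controls and fell by 0.89 (adjusted p = 0.00101). Gpc3 lies on the X chromosome, and among females alone it fell by 0.93 (adjusted p = 0.00864). Bmper, which binds bone morphogenetic proteins, measured 8.32, 8.21, 7.96 and 8.11 in the mutants against 8.78, 8.76 and 8.70 in the controls and fell by 0.59 (adjusted p = 0.00649). Fgf7, a fibroblast growth factor made at the antihem, where pallium meets subpallium, measured 5.06, 5.17, 5.20 and 5.35 in the mutants against 5.77, 5.67 and 5.69 in the controls. All mutants were below the detection level there, so Fgf7 fell at least 1.18-fold (adjusted p = 0.0172), and its dimmer probe set, with a mean level of 5.18, was lower too. The Fgf7 call was lost without any 1 control, mutant 1 or mutant 2 (adjusted p up to 0.0995). Pdgfc, a platelet-derived growth factor, was the only growth factor gene among the 66 that rose, by 0.52 (adjusted p = 0.0327), and its call was lost when any array but control 1 was left out (adjusted p up to 0.264).

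Transporters, receptors and adhesion molecules changed in both directions. Slc1a2, the glutamate transporter GLT-1, measured 9.54, 9.47, 9.92 and 9.79 in mutants 1 to 4 and 7.64, 8.48 and 8.57 in controls 1 to 3. It rose by 1.45 or 2.74-fold (SE 0.22, adjusted p = 0.00208 in limma), and control 1 lay below the other controls. Its dimmer probe sets differed by -0.05 and 0.17 (adjusted p = 0.984 and 0.892), so this rise rests on 1 probe set, and the mean of its probe sets rose by 0.52. Slc14a1, a urea transporter, measured 3.47, 3.6, 3.25 and 3.78 in the mutants against 6.01, 5.26 and 5.17 in the controls. Every mutant value and controls 2 and 3 were below the detection level. The fold therefore has a bound of only 1.00, while the measured difference was -1.95 (adjusted p = 6e-06). Slc16a14, a relative of monocarboxylate transporters, fell by 0.64 (adjusted p = 0.000536), and its other probe set fell by 0.70.

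Tmem163, a zinc transporter of synaptic vesicles, measured 9.06, 8.89, 8.89 and 8.89 in the mutants against 7.94, 7.95 and 8.02 in the controls, with a rise of 0.96 (SE 0.09, adjusted p = 9.85e-06 in limma). Mutant 1 was the highest and the other mutants lay within 0.01 of each other. Igsf11, an immunoglobulin-like adhesion molecule, measured 6.95, 6.86, 6.73 and 6.72 in the mutants against 7.63, 7.61 and 7.80 in the controls and fell by 0.87 (adjusted p = 4.66e-05). Jph1, which couples plasma membrane and endoplasmic reticulum, measured 7.14, 6.74, 6.74 and 7.13 in the mutants against 7.83, 7.64 and 7.75 in the controls and fell by 0.80 (adjusted p = 0.00101), while its other probe set changed by -0.09 (adjusted p = 0.951). Paqr8, a membrane receptor for progestins, fell by 0.74, and the potassium channel gene Kcna2 fell, with all mutants below the detection level and the controls at it, so no size is given. Susd2 and Tmem25, membrane proteins, rose by 0.42 and 0.47, and the other probe set of Tmem25 differed by 0.07 (adjusted p = 0.972). Tmem25 was the only 1 of the 66 genes whose groups overlapped, and non-overlapping groups were found in 914 of all genes (6.6%). Qrfpr, a neuropeptide receptor, changed by -0.79 with both groups below the detection level, so no fold is given. Of these small changes Kcna2, Susd2, Tmem25 and Qrfpr lost the call without at least 1 array, with adjusted p up to 0.261.

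Genes of signalling enzymes and adaptors were called in both directions. Gna14, an alpha subunit of heterotrimeric G proteins, measured 5.75, 5.14, 4.84 and 5.20 in mutants 1 to 4 and 7.46, 7.02 and 7.05 in controls 1 to 3. It fell by 1.94 or 3.85-fold (SE 0.17, adjusted p = 3.3e-06 in limma), with mutant 1 highest among the mutants. Mutants 2 to 4 were below the detection level, so this size is not exact. The other probe set of Gna14, with a mean level of 4.93, was lower too. Plce1, a phospholipase C, measured 8.78, 8.73, 8.51 and 8.77 in the mutants against 9.41, 9.29 and 9.46 in the controls and fell by 0.69 (adjusted p = 0.0013). Dapp1, an adaptor that binds phosphoinositides, measured 6.51, 6.17, 6.28 and 6.39 in the mutants against 7.23, 7.70 and 7.11 in the controls and fell by 1.01 (adjusted p = 0.00105). The adaptor Tifa (-0.82), the phosphodiesterase Pde1c (-0.52), protein kinase C beta (Prkcb, -0.45), the Rab regulator Tbc1d4 (-0.51) and the vesicle GTPase Rab8b (-0.27) fell too. Each of these 5 lost the call without at least 3 of the 7 arrays in turn (adjusted p up to 0.193).

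Asb4, whose protein recruits substrates to ubiquitin ligases, showed the largest rise. It measured 7.98, 8.16, 7.75 and 8.06 in mutants 1 to 4 and 6.55, 5.76 and 6.10 in controls 1 to 3, a rise of 1.85 or 3.61-fold (SE 0.23, adjusted p = 0.000174 in limma). Its other probe set rose by 1.67 (adjusted p = 2.54e-05). In Sey mutants Asb4 rose by 3.61, more than in Leca2 (adjusted p of the difference 0.00182), and in Leca4 mutants it changed by 0.53 (adjusted p = 0.208). Ddit4l, an inhibitor of mTOR signalling, measured 7.80, 7.83, 7.68 and 7.53 in the mutants against 7.05, 6.81 and 6.91 in the controls and rose by 0.79 (adjusted p = 0.000411). Mtm1, a phosphoinositide phosphatase gene on the X chromosome, measured 11.05, 10.82, 10.61 and 10.75 in the mutants against 9.33, 9.36 and 10.13 in the controls and rose by 1.20 (adjusted p = 0.0196). Among females alone the difference of Mtm1 was 1.07 (adjusted p = 0.24), and its call was lost without control 1, control 2, mutant 1 or mutant 2 (adjusted p up to 0.156). Its other probe sets differed by 0.03 and 0.87 (neither called), and the mean of its probe sets by 0.70 (adjusted p = 0.066). Pcp4, which modulates calmodulin, rose by 0.39, and its call was lost without any of the 7 arrays (adjusted p up to 0.196).

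A pair of genes that promote apoptosis through the BH3 domain were among those that rose. Bcl2l11 (Bim) measured 9.84, 9.84, 9.80 and 9.86 in the mutants against 8.72, 9.19 and 9.31 in the controls, a rise of 0.76 (adjusted p = 0.00825 in limma). Of its 3 other probe sets, 2 rose, by 0.64 and 0.69, and the third differed by 0.25 (adjusted p = 0.295). Without control 1, the lowest control, Bcl2l11 differed by 0.59 and was not called (adjusted p = 0.0698). Hrk (Harakiri) measured 8.35, 8.80, 8.66 and 8.45 in the mutants against 8.10, 7.44 and 7.55 in the controls, a rise of 0.87 (adjusted p = 0.0448), and its other probe set differed by 0.19 (adjusted p = 0.729). Without control 2, control 3, mutant 2, 3 or 4 the Hrk call was lost (adjusted p up to 0.317). The list of p53 and cell death genes, which holds neither, had 0 of 9 measured members called in limma and 0 at an unadjusted p under 0.05, with a median difference of 0.02.

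Genes of enzymes and structural proteins were called as well. Napepld, which makes N-acylethanolamines, lipid messengers of the endocannabinoid family, measured 6.95, 6.68, 6.69 and 6.72 in mutants 1 to 4 and 7.66, 7.66 and 7.71 in controls 1 to 3. It fell by 0.92 (SE 0.09, adjusted p = 6e-06 in limma), with tight groups. Aldoc, the aldolase of radial glia and astrocytes, measured 12.37, 12.40, 12.16 and 12.44 in the mutants against 13.06, 13.03 and 12.84 in the controls and fell by 0.64 (adjusted p = 0.00567). A second, dim probe set of Aldoc changed by -0.18 (adjusted p = 0.7). Msrb3, a methionine sulfoxide reductase, measured 7.98, 7.47, 7.10 and 7.88 in the mutants against 8.90, 8.41 and 8.39 in the controls and fell by 0.96 (adjusted p = 0.0196), a call lost without control 1, mutant 2 or mutant 3 (adjusted p up to 0.156). Ornithine aminotransferase (Oat) and the mitochondrial adenylate kinase Ak3 both fell by 0.32, and Sgms1, which makes sphingomyelin, fell by 0.43. Each of these 3 lost the call without 5 of the arrays in turn (adjusted p up to 0.213).

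Lmo7, a LIM-domain protein of cell junctions, measured 6.78, 6.65, 7.69 and 6.69 in the mutants against 7.88, 8.49 and 8.71 in the controls. Mutant 3 lay about 1 log2 unit above the other mutants and just below control 1, and the gene fell by 1.41 (adjusted p = 0.000817 in limma). A second probe set of Lmo7 changed by -0.41 (adjusted p = 0.134). With the Leca2 arrays alone Lmo7 was not called (adjusted p = 0.154). Map7, which binds microtubules, fell by 0.50 (adjusted p = 0.00567). The call of Map7 was lost without control 1 (adjusted p = 0.0542). The motor gene Myo6 fell by 0.48 and the X-linked LIM gene Fhl1 fell by 0.58. The dimmer probe sets of Myo6 changed by -0.41 and -0.03 (neither called). Carhsp1, an RNA-binding protein, rose by 0.36, the endocytic gene Fcho1 by 0.29 and the coiled-coil gene Ccdc14 by 0.27. These 5 lost the call without at least 4 of the 7 arrays in turn (adjusted p up to 0.346). The transcripts 5033430I15Rik and 2310047K21Rik, of no described role here, rose by 0.62 and 0.83 (adjusted p = 0.00438 and 0.00101).

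The called genes were unevenly spread over the chromosomes. Chromosome 2, which carries Pax6, held 15 of the 66 among 1113 tested genes (1.35%), and all other chromosomes together held 51 of 12737 (0.4%). Among those others the share was highest on chromosome 16, with 5 of 440 (1.14%). Within 100 tested genes on either side of Pax6, 6 of 200 were called (3%), Paupar among them, and 8 of 912 genes farther along chromosome 2 (0.877%). Of the 15 genes 9 rose. In the other lines 100 genes of chromosome 2 (8.98%) were called in Leca4 and 272 (24.4%) in Sey. Over all genes the shares were 5.62% and 20.2%.

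**Figure D3:**
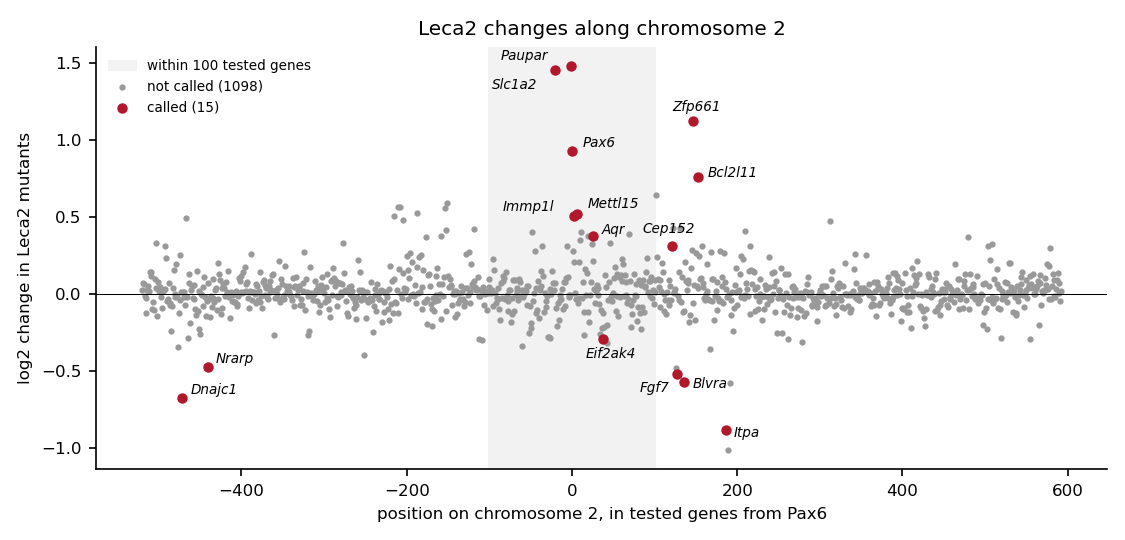
Each point is a tested gene of chromosome 2, the horizontal axis gives its rank in tested genes from Pax6 and the vertical axis its log2 change in Leca2 mutants, with called genes in red and the window of 100 genes to each side shaded. Paupar and Slc1a2 lie highest inside the window, and Zfp661 and Bcl2l11 are the highest called genes beyond it.

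Immp1l, which encodes a mitochondrial peptidase subunit and lies 2 tested genes from Pax6, measured 10.74, 10.91, 10.76 and 11.01 in the mutants against 10.13, 10.43 and 10.47 in the controls and rose by 0.51 (adjusted p = 0.00314 in limma). Mettl15, a methyltransferase gene 6 tested genes from Pax6, rose by 0.52 (adjusted p = 0.00873), and Aqr, a helicase of the spliceosome 26 away, by 0.37 (adjusted p = 0.00463). The dimmer probe sets of Aqr changed by -0.20 and -0.29, and with the mean of its probe sets the sign of Aqr turned (-0.04, adjusted p = 0.986). Eif2ak4, a kinase that senses amino acid shortage, fell by 0.29 (adjusted p = 0.0328), a call lost without any 1 control, mutant 1, 2 or 3 (adjusted p up to 0.193). Control 1 was the lowest control in 7 of the 9 genes that rose on chromosome 2, such as Slc1a2, Immp1l, Zfp661 and Bcl2l11. It was the control farthest from the mutant mean in 35 of all 66 genes. Without control 1, Mettl15, Bcl2l11 and Cep152, a centrosome gene that rose by 0.31, were no longer called (adjusted p = 0.0825, 0.0698 and 0.0825).

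Some chromosome 2 genes were called in both Leca lines and not in Sey. Of the 66 genes 5 were called the same way in Leca4 and not in Sey, and 4 of them lie on chromosome 2. Itpa, which removes damaged purine nucleotides, fell by 0.89 in Leca2, fell by 0.87 in Leca4 and changed by 0.12 in Sey. Blvra, biliverdin reductase, fell by 0.57 in Leca2, fell by 0.51 in Leca4 and changed by 0.15 in Sey. Aqr rose by 0.37 and 0.42 in the Leca lines and changed by 0.02 in Sey, and Eif2ak4 fell in both (-0.29 and -0.22) and changed by -0.16 in Sey. The fifth, 2310047K21Rik, rose by 0.83 in Leca2 and 0.83 in Leca4, and its chromosome is not in the table used. None of the 5 differed between the Leca lines by the test, and Itpa, Blvra and Aqr differed between Leca2 and Sey (adjusted p = 0.0139, 0.0117 and 0.019 in limma), whereas the difference was not called for Eif2ak4 and 2310047K21Rik (adjusted p = 0.462 and 0.0665). Itpa measured 8.54, 8.53, 8.73 and 9.34 in the mutants against 9.55, 9.61 and 9.86 in the controls, so mutant 4 lay nearest to the controls. The uncalled neighbour Gm14057, 3 tested genes beyond and named after its values were seen, measured 5.92, 5.87, 5.99 and 6.63 in the mutants against 6.86, 7.46 and 7.03 in the controls, with mutant 4 again nearest (difference -1.01, adjusted p = 0.0785 in limma). The Itpa call was lost without control 2, control 3, mutant 1, 2 or 3 (adjusted p up to 0.118), and that of Blvra without any of the 7 arrays (adjusted p up to 0.203). An effect of the Pax6 mutation on a linked gene and another allele of that gene carried along with the mutated chromosome cannot be told apart here.

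A large part of the Leca2 set changed in the truncating Sey allele as well. Of the 66 genes, 45 (68.2%) were called in the same direction in Sey mutants, where 20.2% of all genes were called, and none was called in the opposite one. These 45 made up 1.61% of the Sey calls. Of the 42 falls 33 were shared with Sey and of the 24 rises 12. When each line was fitted on its own arrays alone, 27 genes were called in Leca2, 26 of them among the 66, and 22 of the 27 were called the same way in Sey. The lines also differ in strain, and allele and strain cannot be told apart in differences between Leca2 and Sey. By the same sex genes the Sey arrays held 3 females and 1 male among the mutants and 3 males among the controls.

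Where the size of a shared change differed, it was smaller in Leca2. For 11 of the 45 genes the Leca2 change was smaller by the test of the difference, and for none was it larger. Asb4, Rlbp1, Neurog1, Neurod4 and Cxcl12 were among the 11. Neurod4 fell by 1.49 in Leca2 and fell by 2.62 in Sey (adjusted p of the difference 0.000518 in limma), and Cxcl12 fell in both (-1.44 and -2.55, adjusted p 0.00978). Jph1 fell by 0.80 in Leca2 and fell by 2.51 in Sey, and Carhsp1 rose by 0.36 and 1.33. Other genes moved by similar amounts, and their differences were not called. Tmem163 rose by 0.96 in Leca2 and 1.10 in Sey, Napepld fell in both (-0.92 and -1.05), and Igsf11 fell in both (-0.87 and -0.85).

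The set was also compared with that of the other paired-domain allele. Of the 66 genes, 18 (27.3%) were called the same way in Leca4, where 5.62% of all genes were called, and these made up 2.31% of the Leca4 calls. Another 8 were called in the opposite direction, namely Ak3, Dnajc1, Mfge8, Myo6, Neurog1, Pde1c, Qrfpr and Tmem163. For 35 of the 66 the change itself differed between Leca2 and Leca4 by the test. Over all genes that difference was called for 329 (2.38%), and the difference between Leca2 and Sey for 927 (6.69%), where the choice of the 66 by their Leca2 change bears on their share. With a term for sex the difference from Sey was called for 293 genes, and without Leca2 control 1 the counts were 201 for Leca4 and 529 for Sey.

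**Figure D4:**
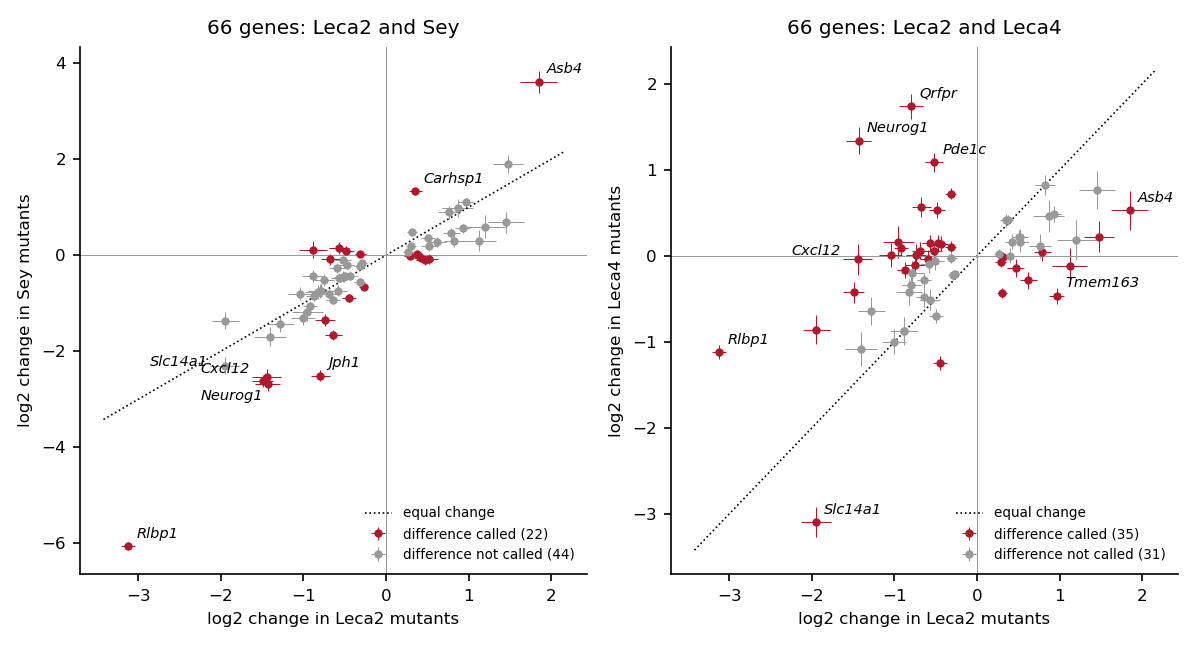
Each point is 1 of the 66 genes, with its log2 change in Leca2 mutants on the horizontal axis and its change in Sey (left) or Leca4 mutants (right) on the vertical axis. Bars are standard errors, red marks genes whose changes differ by the test (22 left, 35 right) and the dotted line marks equal change. No gene called in Sey lies in an opposite quadrant on the left, while 8 genes called in Leca4 do on the right, with Neurog1, Qrfpr and Pde1c among them.

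Of the 66 genes Neurog1 differed most between the paired-domain alleles. It fell by 1.43 in Leca2 and rose by 1.34 in Leca4, a difference of -2.77 (adjusted p = 2.99e-07 in limma). Tmem163 rose by 0.96 in Leca2 and fell by 0.46 in Leca4 (adjusted p of the difference 2.37e-06). Pde1c fell by 0.52 and rose by 1.09 in Leca4, and Dnajc1, a chaperone cofactor, fell by 0.68 and rose by 0.57. Ak3 fell by 0.32 and rose by 0.72, and Myo6 fell by 0.48 and rose by 0.54. Cxcl12, Napepld, Emid1, Plce1 and Paqr8 fell in Leca2 and changed by -0.04, 0.10, 0.01, 0.06 and 0.01 in Leca4, and all 5 differences were called.

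In 13 genes the change was called in the same direction in all 3 mutants. Pax6 and Carhsp1 rose in each, and Aldoc, Dapp1, Gna14, Gpc3, Igfbp5, Lmo7, Map7, Prkcb, Rab8b, Rlbp1 and Slc14a1 fell in each. For Slc14a1 the size of the Leca2 change is limited by the detection level and was not compared. Gna14 changed by -1.94 in Leca2 and by -0.86 in Leca4 (adjusted p of the difference 0.0179 in limma). Leca2 mutants 2 to 4 were below the detection level in this gene, so the size of the difference is not exact. Dapp1 changed by -1.01, -1.0 and -1.3 in Leca2, Leca4 and Sey, and no difference was called.

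A further 14 genes were called in neither of the other lines. They were 5033430I15Rik, Bmper, Ccdc14, Fcho1, Fgf7, Kcna2, Mettl15, Mtm1, Nrarp, Pcp4, Pdgfc, Susd2, Tmem25 and Zfp661. Only Fcho1 and Tmem25 of these differed from both lines by the test, and both lost their Leca2 call without single arrays. Bmper differed from Leca4 (change -0.03, adjusted p of the difference 0.0465 in limma) and its difference from Sey (change -0.27) was not called (adjusted p 0.221).

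The lists of cell types, pathways and states held 10 called genes among 395 tested members. Over all genes 66 of 13850 were called (0.477%). The lists were chosen with earlier results of these data known. Of 26 lists, 21 had 0 members called in limma. Over all genes the median difference was 0.01, 52.6% of differences were above 0, and 948 (6.84%) had an unadjusted p under 0.05. In a bulk sample fewer cells of a type and less RNA per cell cannot be told apart.

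**Figure D5:**
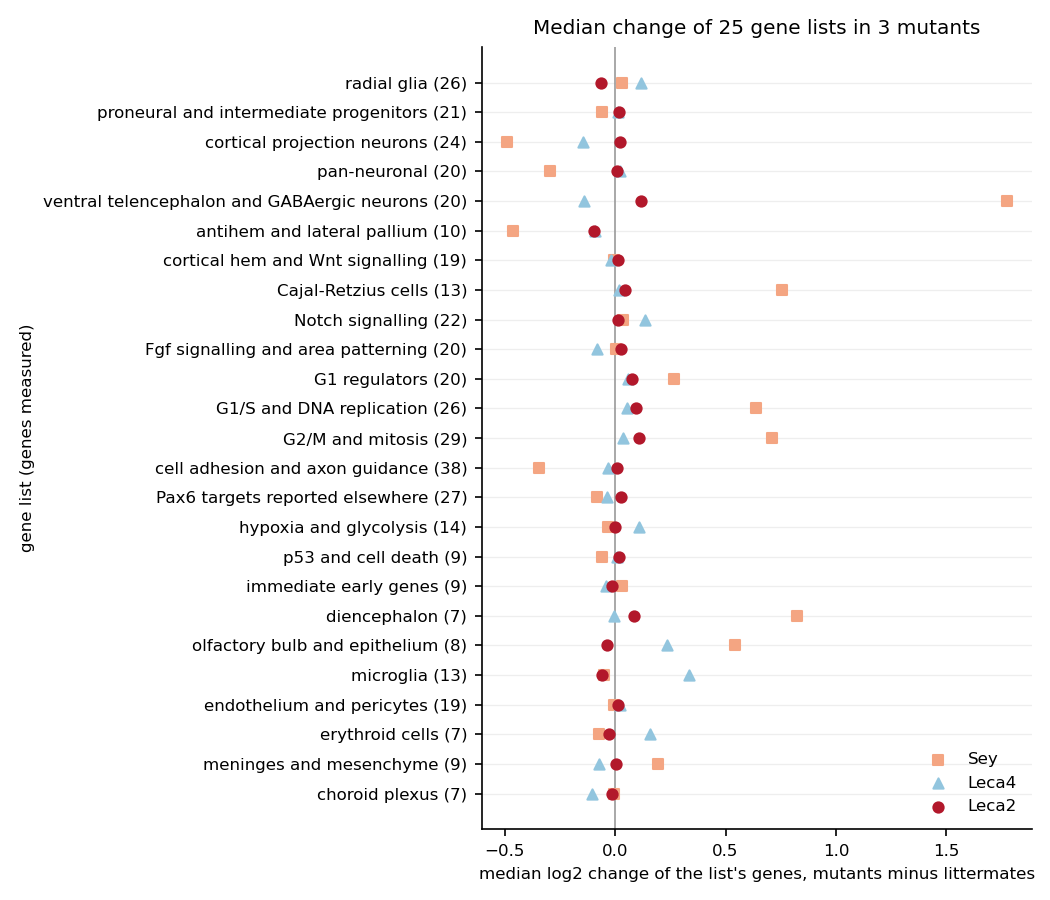
Each row is 1 of 25 gene lists (the sex-linked one is not drawn) with the number of genes measured, and the horizontal axis gives the median log2 change of its genes in Leca2 (circles), Leca4 (triangles) and Sey mutants (squares). The Leca2 medians lie between -0.09 and 0.12, and the Sey median of the ventral telencephalon list lies at 1.78.

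Of the radial glia list 2 of 26 genes rose (Pax6 and Mfge8) and 2 fell (Id4 and Aldoc), with a median of -0.06. Sox2, which maintains neural stem cells, measured 12.44, 12.22, 12.15 and 12.30 in the mutants against 12.41, 12.31 and 12.21 in the controls, and its groups overlapped (difference -0.03, 95% interval -0.30 to 0.24). The uncalled Dmrt3, a regulator of dorsal telencephalic fate named after its values were seen, measured 7.28, 7.45, 7.34 and 8.05 in the mutants against 9.15, 8.48 and 8.71 in the controls. Its groups did not overlap (difference -1.25, adjusted p = 0.0579 in limma). Of the antihem and lateral pallium list 2 of 10 fell, Rlbp1 and Fgf7, and the median was -0.09. Nrg1, a neuregulin of the antihem, differed by -0.36 (adjusted p = 0.0845, and 0.0207 with weighted arrays). Of the genes listed as Pax6 targets reported elsewhere, 1 of 27 was called, Cxcl12, and the median was 0.02. The Notch list had 1 of 22 called, Nrarp, with a median of 0.01, and Hes1 and Hes5, its main targets in progenitors, differed by -0.06 and -0.20 with overlapping groups.

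Neurons and the other pallial structures gave 0 calls in limma. At an unadjusted p under 0.05 stood 3 of 24 genes of cortical projection neurons (median 0.02), 0 of 20 pan-neuronal genes (median 0.01), 4 of 13 genes of Cajal-Retzius cells (median 0.04), 6 of 19 of the cortical hem and Wnt signalling (median 0.01) and 3 of 38 of cell adhesion and axon guidance (median 0.01). For Fgf signalling and area patterning it was 3 of 20, with a median of 0.02. In that list Nr2f1 (COUP-TFI), a regulator of area identity, measured 10.42, 10.14, 10.19 and 10.13 in the mutants against 10.72, 11.23 and 10.92 in the controls, with no overlap of the groups (difference -0.73, adjusted p = 0.224, and 0.0321 with weighted arrays). Fgf15, a growth factor of rostral and ventral progenitors, measured 6.93, 8.89, 7.0 and 6.02 in the mutants against 6.25, 5.53 and 6.19 in the controls, and the mutant arrays spread widely (difference 1.22, adjusted p = 0.487).

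Cell cycle genes were slightly higher in most cases, without a call in limma. All 29 measured mitosis genes (G2/M) and 24 of 26 genes of G1/S and DNA replication had a mean above the controls, with medians of 0.11 and 0.10, and 2 and 5 of them had an unadjusted p under 0.05. These genes vary together from array to array. The mean level of the G2/M list was 10.64, 10.52, 10.27 and 10.61 in mutants 1 to 4 and 10.57, 10.23 and 10.40 in controls 1 to 3, and the groups overlapped, with mutant 3 and control 2 lowest. In Sey mutants the medians were 0.71 and 0.64, and 29 of 29 and 25 of 26 genes were called upward. The Leca2 and Sey changes differed by the test in 20 of the 29 and 19 of the 26. G1 regulators had a Leca2 median of 0.08, 1 of 20 genes at an unadjusted p under 0.05 and 0 called. The replication gene Mcm3, the kinase gene Cdk4 and the chromatin gene Hmga2, which earlier work connects to Pax6, differed by 0.06, 0.02 and -0.22, with 95% intervals of -0.17 to 0.28, -0.08 to 0.13 and -0.61 to 0.18 and overlapping groups.

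Ventral telencephalic genes varied widely among the mutants. On the list for ventral telencephalon and GABAergic neurons 0 of 20 measured genes were called in limma, and 3 had an unadjusted p under 0.05. The mean level of the list was 6.65, 7.28, 7.24 and 6.48 in mutants 1 to 4 and 6.60, 6.75 and 6.78 in controls 1 to 3. Mutants 2 and 3 stood above every control and mutants 1 and 4 within or near their range. Dlx2, a homeobox gene of ventral progenitors, measured 8.23, 9.17, 9.54 and 7.61 in the mutants against 7.70, 8.19 and 8.27 in the controls (difference 0.59, adjusted p = 0.872). Gsx2, which specifies the lateral ganglionic eminence, measured 5.53, 6.34, 6.68 and 5.36 in the mutants against 5.37, 5.23 and 5.29 in the controls, with mutants 2 and 3 high and the controls below the detection level (difference 0.68, adjusted p = 0.628). Isl1, a factor of striatal neurons, measured 5.18, 8.11, 5.79 and 4.85 in the mutants against 4.44, 4.76 and 4.72 in the controls, with mutant 2 far above the rest (difference 1.34, adjusted p = 0.531). Olig2, of ventral progenitors and the oligodendrocyte lineage, measured 7.48, 7.42, 6.96 and 7.22 in the mutants against 6.72, 6.53 and 6.59 in the controls, and here all mutants lay above all controls (difference 0.66, adjusted p = 0.307). In Sey mutants 14 of the 20 genes rose, with a median of 1.78, and 12 differed between Sey and Leca2 by the test. How much ventral tissue each dissection held was not tested.

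Markers of other cells that a dissection could hold also gave 0 calls in limma. The diencephalon list (7 genes, median 0.09), microglia (13, median -0.06), endothelium and pericytes (19, median 0.01), erythroid cells (7, median -0.03) and choroid plexus (7, median -0.01) had 0 genes at an unadjusted p under 0.05. The olfactory list had 3 of 8 (median -0.04) and meninges and mesenchyme 2 of 9 (median 0.00). The mean level of the meningeal list was 7.95, 7.91, 7.88 and 7.97 in mutants 1 to 4 and 7.94, 7.65 and 7.69 in controls 1 to 3, with all mutants above controls 2 and 3. Hypoxia and glycolysis had 0 of 14 called (median -0.00) and 1 at an unadjusted p under 0.05, and immediate early genes 0 of 9 called (median -0.01) and 0 at an unadjusted p under 0.05. The sex-linked list had 0 of 4 called and 0 at an unadjusted p under 0.05, with a median of 2.46 and males among the mutants only.

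Among the largest differences of Leca2 from the other alleles, several concerned genes not called in Leca2, beside the called Neurog1 and Rlbp1. Dmrta1, a regulator of dorsal progenitors, measured 9.36, 8.79, 8.24 and 9.21 in the mutants against 8.72, 8.08 and 8.26 in the controls in the Leca2 line, a difference of 0.55 (adjusted p = 0.767 in limma). It fell by 2.14 in Leca4 and fell by 3.66 in Sey, and both differences from Leca2 were called (adjusted p = 0.000556 and 1.69e-06). Meis1, a homeobox gene, fell by 2.05 in Leca4 and differed by 0.10 in Leca2 (adjusted p of the difference 0.000148). Dbx1, a homeodomain factor made at the antihem, rose by 2.52 in Leca4 and differed by -0.07 in Leca2 (adjusted p of the difference 0.00141). Dlx1, Dlx5 and Dlx6os1 rose by 3.88, 3.76 and 4.55 in Sey and differed by 0.42, 0.26 and 0.39 in Leca2. Eya4, a transcriptional coactivator, and Crabp1, which binds retinoic acid, rose by 2.34 and 2.66 in Leca4 and differed by -0.35 and -0.07 in Leca2.

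How firmly a call stood varied within the set. In 16 of the 66 genes the call held under every alternative that gave a value, namely Asb4, Cxcl12, Ddit4l, Emid1, Gna14, Igfbp5, Igsf11, Napepld, Neurod4, Neurog1, Paupar, Pax6, Plce1, Rlbp1, Slc14a1 and Tmem163. It held without each array in turn in 32, and the other 34 lost it without at least 1 array, with adjusted p between 0.0506 and 0.346. Leaving out mutant 2 gave the lowest count, 40 genes. With all 129 S6 controls, Zfp661, 5033430I15Rik, Immp1l, Tmem25, Carhsp1, Mfge8, Fcho1, Eif2ak4, Fgf7 and Ripply3 moved by over 1.5 times toward 0 and were not called (adjusted p between 0.108 and 0.978 in limma). With probe sets averaged per gene, Slc1a2, Hrk, Aldoc, Jph1, Igfbp5, Lmo7 and Neurog1 moved as far toward 0 and were called, and Mtm1, Tmem25, Aqr and Myo6 were not (adjusted p between 0.066 and 0.986). Fitted on the 7 Leca2 arrays alone, 27 genes were called, 26 of them among the 66. Of the 66 genes 35 had further probe sets above the detection filter, 53 in all, of which 48 changed in the same direction, 21 were called that way and 0 were called the opposite way.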

How the data were processed

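Total RNA of embryonic rostral cortex was measured on Affymetrix expression arrays. The deposited values are on a log2 scale and were made by the authors with RMA, per the submitters' processing notes (version not given in the sources used here). Of 45101 probe sets, 34945 named 1 gene. Probe sets above the 40th percentile of their array on at least 3 arrays were kept (29474), and the brightest kept probe set stood for each gene (13850 genes). One model of 6 groups over all 21 arrays was fitted with limma 3.58.1 (R 4.3.3), with Benjamini-Hochberg adjustment over all genes and a threshold of 0.05. Genes described in full were, besides Pax6, the called genes that rose or fell most (15 each) among those without overlap of the groups, called genes near Pax6, index genes, up to 4 genes of the smallest p in each list, and the 5 largest differences between lines in each direction. The other called genes and genes marked as such were added after their values were seen. The genes and lists were chosen with earlier results of these data known. The alternatives were other filters, normalizations, probe set rules, variance models, controls, thresholds, subsets of arrays or genes, terms for sex and replicate number, and each array left out. Intervals are 95% intervals of the fit. The pipeline was tested on simulated data. Promoters came from RefSeq (GRCm38.p6).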

Additional observations from a re-analysis of the deposited data

Results flagged for a closer look

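In 10 genes 1 mutant array stood apart from the other mutants, with a gap to its nearest neighbour that took a large share of the range of the 4. Chance flags about 1 in 20 such groups, and 10 of 175 genes examined is 5.71%. The share of the range was 0.872 in Clic6 (mutant 3), 0.889 in G630016G05Rik (mutant 1), 0.881 in Igfbp5 (mutant 4), 0.856 in Kcna2 (mutant 2), 0.878 in Lmo7 (mutant 3), 0.885 in P2ry12 (mutant 4), 0.911 in Prokr2 (mutant 4), 0.855 in Slc16a14 (mutant 3), 0.961 in Tmem163 (mutant 1) and 0.982 in Tubb3 (mutant 4).

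In 44 named genes the change of Leca2 mutants differed from that of Leca4 mutants by limma's test of the difference, given as the Leca2 minus the Leca4 log2 change. They are called Leca2 genes and the 5 largest differences in each direction, the latter named because this difference was called. The count is therefore no result about them. Over all genes the difference was called for 329 (2.38%). Signed differences above 0 were Dmrta1 2.70, Meis1 2.15, G630016G05Rik 2.06, Tnc 1.73, Ptx3 1.70, Tmem163 1.43, Asb4 1.32, Paupar 1.25, Zfp661 1.24 and Slc14a1 1.14. A further group was 5033430I15Rik 0.90, Prkcb 0.80, Ddit4l 0.74, Mfge8 0.74, Tmem25 0.61, Fcho1 0.36 and Cep152 0.32. Signed differences below 0 were Oat -0.43, Bmper -0.56, Fgf7 -0.57, Sgms1 -0.57, Nrarp -0.62, Ripply3 -0.65, Igsf11 -0.70, Id4 -0.72, Plce1 -0.75 and Paqr8 -0.75. Others were Napepld -1.01, Myo6 -1.02, Ak3 -1.04, Emid1 -1.06, Neurod4 -1.07, Gna14 -1.09, Msrb3 -1.12, Dnajc1 -1.25, Cxcl12 -1.40 and Pde1c -1.61. Others were Rlbp1 -2.0, Qrfpr -2.53, Dbx1 -2.59, Eya4 -2.69, Crabp1 -2.74, Neurog1 -2.77 and Cryab -2.90.

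In 31 named genes the change of Leca2 mutants differed from that of Sey mutants by limma's test of the difference, given as the Leca2 minus the Sey log2 change. These genes were chosen in the same way, and over all genes the difference was called for 927 (6.69%). Signed differences above 0 were Dmrta1 4.22, Rlbp1 2.93, Lratd1 2.66, 9130024F11Rik 2.62, Gcg 2.50, Jph1 1.71, Neurog1 1.24, Neurod4 1.13, Cxcl12 1.10 and Aldoc 1.03. A further group was Pdgfc 0.61, Paqr8 0.61, Tmem25 0.56, Susd2 0.48, Prkcb 0.44, Pcp4 0.41, Rab8b 0.39, Aqr 0.35 and Fcho1 0.30. Signed differences below 0 were Kcna2 -0.34, Myo6 -0.58, Dnajc1 -0.59, Blvra -0.72, Carhsp1 -0.97, Itpa -1.0, Asb4 -1.76, Sp8 -3.27, Dlx1 -3.47 and Dlx5 -3.50. Others were Uncx -3.69 and Dlx6os1 -4.16. The Leca2 mutants lay below the detection level in Slc14a1, Kcna2, Fgf7 and Uncx, and Leca2 mutants 2 to 4 in Gna14. The Leca2 controls did in Paupar, and both Leca2 groups in Qrfpr and Cryab. The sizes of these differences are therefore not exact.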

How the results depend on the processing

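The 66 Leca2 calls became 236 when all 129 S6 controls were used together, 121 with array weights, 110 of 29474 when each probe set was tested, 43 with females alone and 27 with only the groups of the comparison. Leaving out 1 array at a time gave 40 to 61. The 329 differences between Leca2 and Leca4 became 611 at an adjusted p of 0.1 and 499 with array weights, and 201 to 398 without single arrays. With all 129 S6 controls together the shared controls cancel. Leca2 mutants were then set directly against Leca4 mutants, and 5002 genes were called. That count does not compare changes from littermates. The 927 differences between Leca2 and Sey became 1411 at an adjusted p of 0.1 and 293 with a term for sex, and 529 to 1072 without single arrays. Of the 5002 differences 4325 were below 0 and 677 above. The 129 S6 controls of both Leca lines differ in litter and sex. The array medians of these lines also differed, at 6.11 to 6.18 in Leca2 and 6.25 to 6.26 in Leca4. The cause of the larger counts was not tested. The sample titles do not say whether mutants and controls of the same replicate number were paired. Deviations of same-numbered arrays correlated at 0.34, -0.05 and 0.23. With the replicate number as a block 28 genes were called in Leca2, 25 of them among the 66, and 148 and 559 differences from Leca4 and Sey. Of 1502 values of the 66 genes over 23 alternatives, 1173 kept direction and call, 328 kept the direction and lost the call, and 1 reversed, that of Aqr with the mean of its probe sets (-0.0404, adjusted p = 0.986 in limma). The 23 include the main fit at an adjusted p under 0.10, which cannot lose a call. They also include the main fit with a change of at least 1.4-fold required, which kept 48 by that cut alone. Of 109 named uncalled genes, 19 of 2485 values were called under an alternative, and 0 values were called with the opposite sign. Sign changes without a call were not counted in these genes. Pax6 was called under all, at 0.64 to 0.98. With 4 and 3 arrays the precision is limited by their number, and genes whose lower group lies below the detection level have a bound only.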
